A study of Mus musculus with 6 samples.

Results

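Spermatids starting elongation were described in single-cell RNA sequencing of mouse testis, as cell barcodes (droplets, each nominally 1 cell) in which protamine and transition protein mRNA had begun to accumulate. P was the percent of a barcode's unique molecular identifiers (UMIs, counted mRNA molecules) that came from Prm1, Prm2, Tnp1 and Tnp2. Members had P from 3 to under 10, at least 10000 UMIs and at most 20% of UMIs from mitochondrially encoded genes. Of 54253 deposited barcodes, 194 met the rule. They were compared with 1118 barcodes of earlier spermatids (P under 3 and the same limits, with more UMIs from a round spermatid marker list than from a spermatocyte list and than from somatic lists together) and with 3721 barcodes at P of 10 or more, the later band. Members were thus chosen by the measured levels of the 4 rule genes, so differences along P are given as descriptions without a test.

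After meiosis, round spermatids become elongating spermatids: the acrosome spreads over the nucleus, the flagellum grows, and a skirt of microtubules called the manchette helps to shape the nucleus. Histones are replaced by the transition proteins Tnp1 and Tnp2 and then by the protamines Prm1 and Prm2, which pack the DNA tightly and end most transcription. Many mRNAs made before that point are stored and translated later.

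The study exposed ICR mice to cigarette smoke and kept controls in a chamber without smoke, with 3 testis libraries in each group. Per the labels, exposure ran for 12 weeks in sessions of 30 minutes a day with 15 cigarettes each, after purchase at an age of 6 weeks and 1 week of acclimatisation. All mice were of the same outbred stock with no genetic change, each group held 7 mice, the left testis was dissociated, and dead cells were removed. The labels do not tie mice to libraries, and they give an age of 8 weeks, which is younger than that schedule gives.

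The control libraries held 32, 27 and 33 members and the smoking libraries 25, 52 and 25. Member UMIs per library ranged from 654806 to 1118708, and each smoking library had more UMIs in all (55751481 to 78455606) than each control library (39607204 to 54915594). Across libraries 365 barcode sequences occurred more than once, but no member shared its sequence with another member and 1 shared it with any barcode elsewhere.

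Members were sparse between denser neighbours. There were 1271 barcodes at P of 1 to under 2, 11 at 9 to under 10, and 385 at 31 to under 32. Within the band, 105 members (54.1%) lay at P of 3 to under 5, 46 (23.7%) at 5 to under 7 and 43 (22.2%) at 7 to under 10. The median member had 17050 UMIs (10009 to 131900), 4436.5 genes and a P of 4.80.

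**Figure D1:**
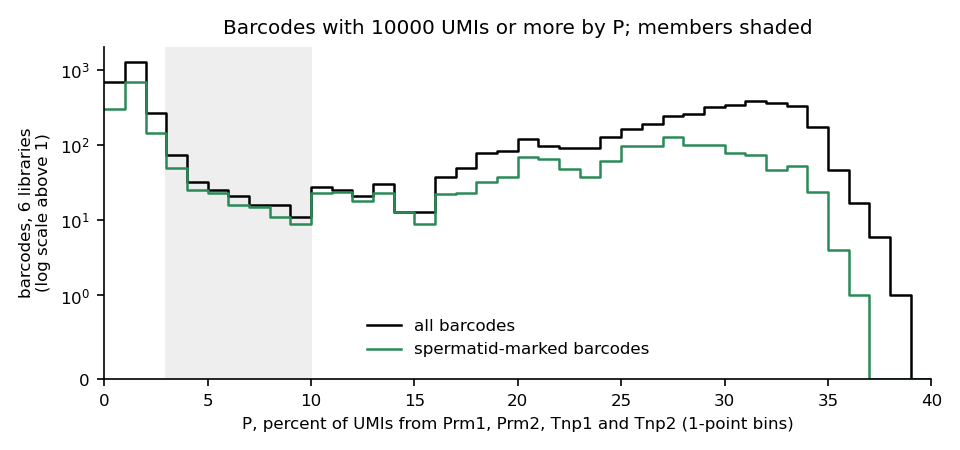
Number of barcodes with at least 10000 UMIs over the 6 libraries (y, log scale above 1) in bins of P of 1 percentage point (x), for all barcodes and for spermatid-marked ones, with the member window shaded. Counts are low from the window up to P of 15: 1271 barcodes lie at P of 1 to under 2, 11 at 9 to under 10 and 13 at 14 to under 15.

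Most members were spermatids by marker lists, but not all. By the marker condition used for the earlier spermatids, 149 of 194 members (76.8%) were spermatids and 45 were not. All earlier spermatids meet this condition by definition, so it cannot show that elongation had started. Hemgn, a nuclear protein gene named with Faiml and Dcdc2c as a marker of the stage, stood at 381 CPM (counts per 1e6 UMIs) in the 149 and 57.7 CPM in the 45. Round spermatid list UMIs were 62.8 per 10000 in the former and 7.74 in the latter at the median, but the condition uses this list, so that difference is built in. Mitochondrially encoded UMIs took a median of 0.039% of UMIs in the 149 and 7.00% in the 45.

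The other 45 barcodes carried transcripts of several cell types. Their leading marker list was Sertoli in 18, spermatocyte in 16, spermatogonia in 6, macrophage in 3 and Leydig in 2. They held 17.1% of all member UMIs, and 27.8% in smoking replicate 2, where 8 of the 16 spermatocyte-led barcodes were found. For comparison, macrophage-marked barcodes, which should not make protamine mRNA, had a median P of 3.21 to 4.47 per library at median depths of 4732 to 5446 UMIs, and barcodes under 4000 UMIs had 6.65 to 10.0. P within the window therefore occurred in cells of other types too, so gene levels are given for the 149 spermatid-marked members unless stated. That condition was added after the data were seen.

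Hemgn set the spermatid-marked members apart from the other 45 and from macrophage-marked barcodes when each barcode was thinned to 3000 UMIs. Earlier spermatids and the later band were not part of this comparison. Hemgn was detected in 92 of 149 spermatid-marked members (61.7%), in 4 of the other 45 (8.89%) and in 43 of 303 macrophage-marked barcodes (14.2%). Faiml was detected in 13.4%, 13.3% and 4.29%, and Dcdc2c in 11.4%, 6.67% and 3.96%; these 2 genes were too sparse at this depth to set the groups of members apart. Before thinning the Hemgn shares were 93.3%, 48.9% and 22.4%.

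At the lower limit, the 269 barcodes at P of 2 to under 3 were 52.8% spermatid-marked with Hemgn at 115 CPM, and the 73 members at 3 to under 4 were 68.5% marked with 200 CPM. At the upper limit, the 11 members at 9 to under 10 had 518 CPM and the 28 barcodes at 10 to under 11 had 659 CPM. Of 57 barcodes with 9000 to under 10000 UMIs 64.9% were marked, against 56.3% of 32 with 10000 to under 11000. Hemgn was thus graded across both limits of P.

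**Figure D2:**
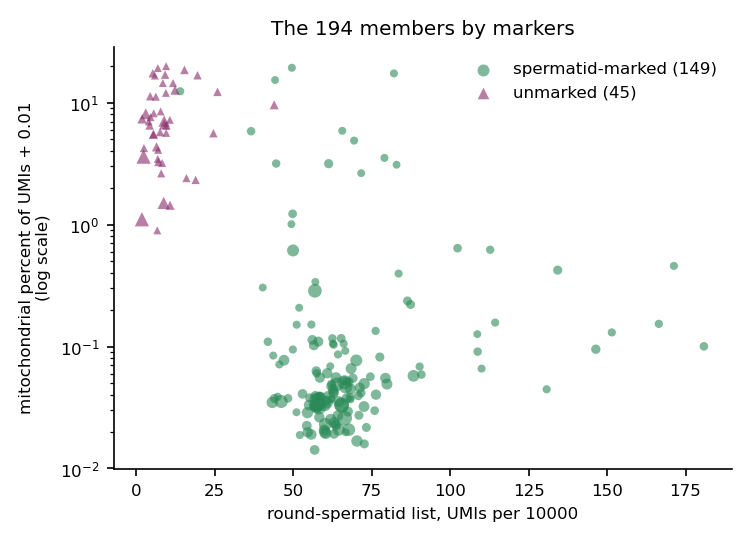
Each point is a member: round spermatid list UMIs per 10000 (x) against the mitochondrial percent of UMIs plus 0.01 on a log scale (y). Marker shape and colour give the marker condition, and size grows with the barcode's UMIs. The 149 marked members have a median of 62.8 round spermatid list UMIs per 10000, and the other 45 a median of 7.74. The marker condition uses this list, so the difference along x is built in.

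The stage profile was computed in each library as CPM over all UMIs except those of the 4 rule genes, whose own rise would lower every other gene. Folds are differences of log2(CPM + 5), and 2752 genes with at least 50 CPM in the marked members of every library were measured. Of these, 257 (9.34%) were at least 2-fold above earlier spermatids in every library and 6 (0.218%) at least 2-fold below. Against the later band, 828 (30.1%) were at least 2-fold above in every library and 152 (5.52%) at least 2-fold below. At least 2-fold above both were 25 genes (0.908%), and Dyrk4, Parn, Csrnp1, Ctdnep1, Atp6v1h, Cd59a, Osbpl7, Flt1 and 1700017M07Rik, described below, are among them. With all 194 members 20 of 2748 genes (0.728%) met that limit, and 207 (7.53%) were at least 2-fold above earlier spermatids. In any size of difference, 951 genes (34.6%) were above and 1186 (43.1%) below earlier spermatids in every library, 1674 (60.8%) above and 732 (26.6%) below the later band, 426 (15.5%) above both and 204 (7.41%) below both.

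Hemgn (chr4:46393989-46413506, minus strand) showed the course of the window. Earlier spermatids of the 6 libraries held 45.3 CPM ± 6.5 (SD, n = 6 libraries). Marked members held 469, 420 and 481 CPM in the control libraries and 462, 241 and 369 CPM in the smoking libraries. All 6 lay above every earlier value, and smoking replicate 2 was the lowest. By P, Hemgn was 304 CPM at 3 to under 5, 427 at 5 to under 7, 624 at 7 to under 10, 761 at 10 to under 15, 894 at 15 to under 20 and 176 at 20 or more. Its highest level was therefore after the member window. Faiml and Dcdc2c, a doublecortin-domain gene, took the same course at lower counts. Faiml was at 4.93 CPM in earlier spermatids and 48.6 in members and was highest, at 200 CPM, at P of 15 to under 20, and Dcdc2c went from 5.84 to 51.9 to 181 CPM.

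Other genes were higher in the window than in earlier spermatids and than in the later band as a whole. Dyrk4, a testis-rich protein kinase (chr6:126876020-126921839, minus strand), was at 18.7 CPM ± 3.69 in earlier spermatids and 19.6 ± 9.94 in the later band. In marked members it stood at 103, 143 and 104 CPM in the control libraries and 147, 88.6 and 93.4 in the smoking libraries. No member value overlapped either neighbouring band, and the mean log2 folds were 2.30 over earlier spermatids and 2.33 over the later band. Within the window Dyrk4 was 93.5 CPM at P of 3 to under 5, 127 at 5 to under 7 and 132 at 7 to under 10, and then 58.4 at 15 to under 20 and 6.00 at 20 or more. Most of the later band lay at P of 20 or more, so its folds do not place the peak of Dyrk4 inside the window. Parn, a poly(A) ribonuclease (chr16:13537960-13668170, minus strand), was at 134, 125 and 138 CPM in the control libraries and 140, 117 and 143 in the smoking libraries. Its spread among the 6 libraries was small, 133 CPM ± 9.96, against 18.8 in earlier spermatids and 31.5 in the later band, and its highest P interval was 7 to under 10, at 223 CPM, although single libraries held few members per interval. Csrnp1, a nuclear protein gene (chr9:119971163-119984658, minus strand), was at 60.2 CPM in earlier spermatids, 240 ± 25.9 in members and 31.1 in the later band. Its log2 folds were 1.91 and 2.84.

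**Figure D3:**
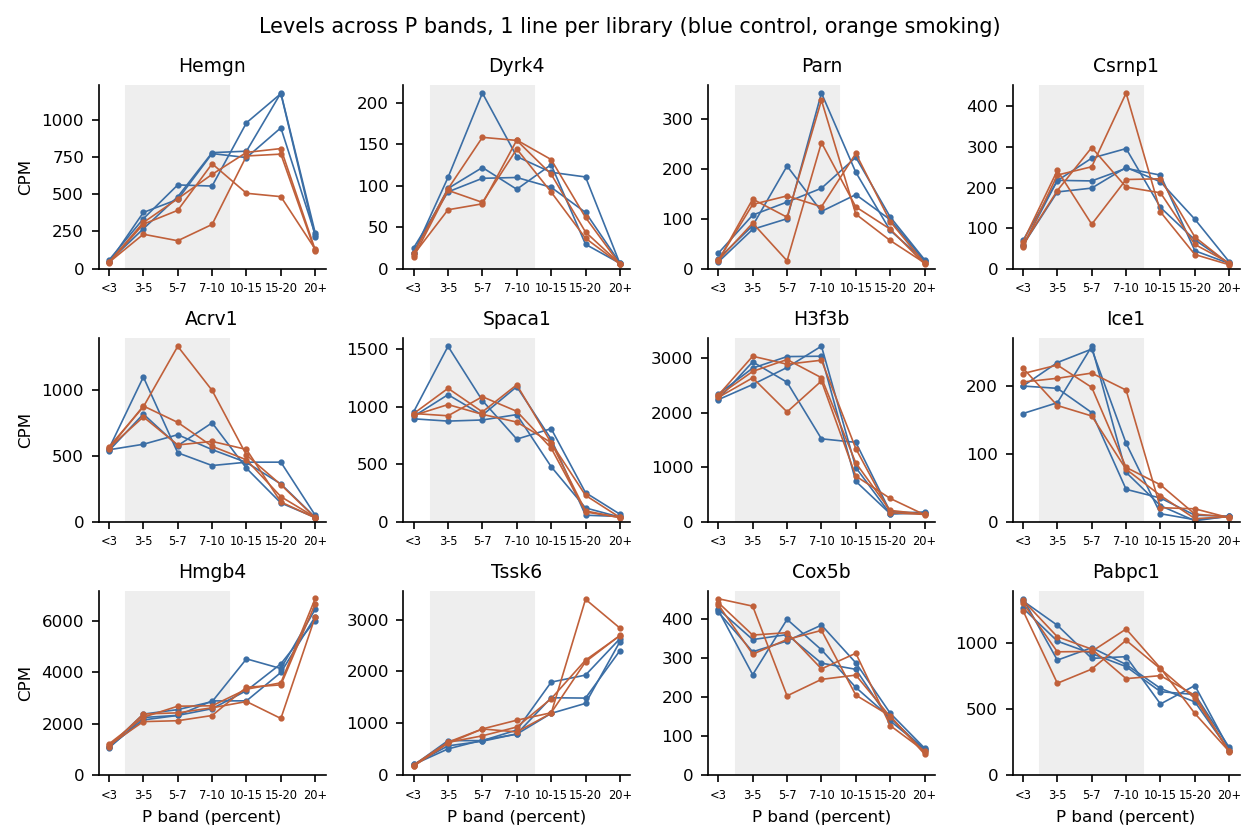
CPM over UMIs without the rule genes (y) by P interval in percent (x), 1 line per library, blue for control and orange for smoking; the shaded intervals are spermatid-marked members, the lowest is earlier spermatids and the others are all barcodes of the later band. Dyrk4, Parn and Csrnp1 are highest in or next to the shaded intervals, Hemgn goes on to a mean of 894 CPM at P of 15 to under 20, and Hmgb4 and Tssk6 are highest at P of 20 or more.

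The remaining named genes of this shape belong to several functions. Ctdnep1, a phosphatase of the nuclear envelope, was at 49.9 CPM before, 191 ± 21.3 in members and 44.5 in the later band. Atp6v1h, a subunit of the proton pump that acidifies vesicles, was at 17.4, 73.4 and 13.2 CPM. Cd59a, a membrane inhibitor of complement, was at 34.0, 165 and 39.7 CPM. In these 3 genes the level after the window was near the level before it. Osbpl7, of the oxysterol-binding protein family, was at 4.74, 76.7 and 16.6 CPM, and Flt1, known as a receptor of vascular endothelial growth factor, at 25.2, 77.5 and 11.4 CPM. The long non-coding RNA gene 1700017M07Rik was lower in the later band (10.6 CPM) than before the window (21.2 CPM), with 106 CPM in members.

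The promoters of Dyrk4 and Parn, which were higher in the window than in both neighbouring bands, and of Hemgn and Faiml, which were highest after it, are shown to set their sequences side by side. Each is the 120 bases before the gene's RefSeq start in GRCm38.p6, on the minus strand, at chr6:126921840-126921959, chr16:13668171-13668290, chr4:46404184-46404303 and chr9:99237240-99237359. The Hemgn bases lie inside the gene span given above, whereas those of Dyrk4, Parn and Faiml adjoin the ends of their gene spans. Which Hemgn start is used in these cells was not tested. Capitals mark TGACG or its reverse complement CGTCA, a half-site of the cyclic AMP response element bound by the spermatid factor CREM, or TATAAA on the coding strand.
Dyrk4: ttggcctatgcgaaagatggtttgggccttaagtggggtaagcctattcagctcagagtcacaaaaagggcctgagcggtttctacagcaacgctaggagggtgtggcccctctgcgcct
Parn: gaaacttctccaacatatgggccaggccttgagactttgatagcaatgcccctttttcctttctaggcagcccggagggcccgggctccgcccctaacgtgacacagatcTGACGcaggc
Hemgn: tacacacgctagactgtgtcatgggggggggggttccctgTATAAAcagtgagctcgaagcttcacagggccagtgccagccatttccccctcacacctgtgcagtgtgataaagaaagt
Faiml: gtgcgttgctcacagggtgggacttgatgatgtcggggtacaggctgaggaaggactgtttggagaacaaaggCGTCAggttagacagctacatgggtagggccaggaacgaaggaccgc

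Parn holds TGACG 10 bases before its start, Faiml holds CGTCA 47 bases before, Hemgn holds TATAAA 80 bases before, and no searched motif occurs in these letters of Dyrk4. In the 250 bases before the start, TGACG or CGTCA occurred in 6 of the 20 genes with a promoter in the table (30.0%) among the 25 at least 2-fold above both bands, in 713 of 2230 measured genes (32.0%) and in 5347 of 27025 genes in all (19.8%). The full element TGACGTCA occurred in 2 of the 20 (10.0%), in 4.17% of measured genes and in 1.77% of all genes. TATAAA on the coding strand occurred in 2 of the 20 (10.0%), in 5.38% of measured genes and in 8.94% of all genes. These are matches of letters, not measured sites.

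Against earlier spermatids, the genes with the highest folds included Trp53tg5, which went from 38.7 to 365 CPM (log2 fold 3.09), and Cd46, a complement regulator of the acrosomal region (3.02). Gm8251 (3.24), 1700016C15Rik (3.06) and Cntn1, a neural adhesion molecule gene (2.91), were also among them. Oxct2a, a testis ketone body enzyme, was at 26.3 CPM before, 197 in members and 888 in the later band. With all 194 members Defb19 led this list at a log2 fold of 4.69, but in marked members it was 0.15. Defb19 is in the Sertoli list, and the other 45 barcodes held it at 4562 CPM.

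Against the later band, the highest folds belonged to transcripts already high in earlier spermatids. 1700001P01Rik had the highest mean log2 fold, 4.28. H3f3b, which encodes the replacement histone H3.3 (chr11:116021912-116027962, minus strand), was at 2293, 2782 and 207 CPM. Its member values were 2951, 2734 and 2551 CPM in the control libraries and 2901, 2579 and 2978 in the smoking libraries, and its later values 180 to 261 CPM. The libraries did not overlap between members and the later band. Ice1, of the little elongation complex that serves small nuclear RNA transcription, was at 202 CPM before, 182 ± 24.5 in members and 8.56 ± 0.737 later. By P it held 203 and 208 CPM up to 7, 97.9 at 7 to under 10 and 30.8 at 10 to under 15, so it was lower by the end of the window.

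**Figure D4:**
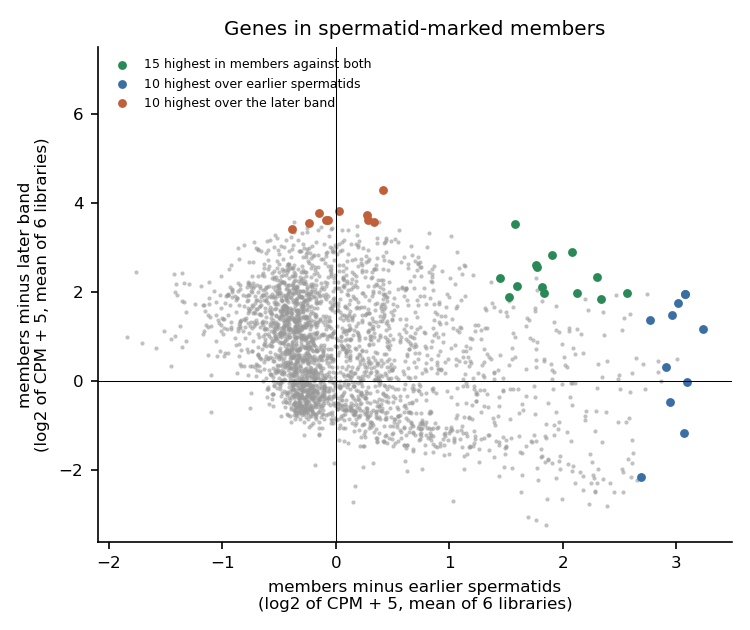
Each point is 1 of 2752 genes: the mean over 6 libraries of the log2(CPM + 5) difference of spermatid-marked members from earlier spermatids (x) and from the later band (y), with named genes coloured by the rule that named them. The genes high in the window, such as Dyrk4 (2.30 and 2.33), lie to the upper right, and those highest over the later band lie near 0 on the x axis.

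Gene lists of spermiogenesis were set beside all 2752 measured genes, whose median log2 fold was -0.13 over earlier spermatids and 0.68 over the later band. Of 25 histone exchange genes 14 were measured, with medians of 0.33 and -0.25, 9 above earlier spermatids and 7 below the later band in every library. Hmgb4, an HMG box protein of spermatids, was at 1120 CPM before, 2399 ± 186 in members and 5925 later. Its member values were 2599, 2269 and 2386 CPM in the control libraries and 2603, 2127 and 2410 in the smoking libraries, between the 2 neighbouring bands in each. The spermatid linker histone genes H1fnt (476, 1063 and 2385 CPM) and Hils1 (1677, 2183 and 2180 CPM) were also above earlier spermatids. Tssk6, a testis-specific kinase needed for histone exchange, was at 192, 703 and 2480 CPM.

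Acrosome genes were mostly higher in members than later. Of 26, 21 were measured, with medians of 0.10 over earlier spermatids and 2.63 over the later band, 19 above the later band in every library. Izumo1, the sperm protein that binds the egg, was at 197 CPM before, 310 in members and 48.8 later, while its relative Izumo2 was at 557, 666 and 830 CPM. Spam1, a hyaluronidase of the sperm surface, was at 202, 64.3 and 11.2 CPM, so it was already lower in members than before. The 12 round spermatid list genes had medians of 0.21 and 2.77, but this list chose the marked members and the earlier spermatids. Some of its genes are also in other lists, such as Spaca1 and Acrv1 in the acrosome list and Catsper3 and Catsper4 in the axoneme list. The medians of those lists are therefore not independent of that choice.

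Tail structure genes were near their neighbours at the median, with 31 of 34 measured outer dense fibre, fibrous sheath and mitochondrial sheath genes at 0.08 over earlier spermatids and -0.08 over the later band. Single genes differed more: Odf2, an outer dense fibre protein, was at 2214, 2585 and 6136 CPM, and Gapdhs, the sperm glycolytic enzyme, at 1003, 1526 and 4127 CPM. The 10 of 28 axoneme genes measured had medians of -0.16 and 1.38. Tekt2, a tektin of flagellar microtubules, was at 1092, 898 and 112 CPM, whereas Tekt5 had its highest mean in members (90.6, 280 and 142 CPM). Of 23 manchette and nuclear shaping genes 14 were measured, with medians of 0.28 and 0.20. Sun3, which links the nuclear envelope to the manchette, had its highest mean in members (175, 337 and 120 CPM), while Hook1, a manchette-linked protein, was highest in the later band (253, 442 and 869 CPM).

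Nuclear genes of oxidative phosphorylation and ribosomal protein genes were mostly lower in members than before. All of the 37 measured nuclear oxidative phosphorylation genes but 3 were below earlier spermatids in every library, and their medians were -0.35 over earlier spermatids and 0.99 over the later band. Cox7b2, a testis subunit of cytochrome c oxidase, was at 582, 339 and 68.9 CPM. The mitochondrially encoded genes did not share this: 4 of 13 were measured, with medians of 0.06 and -0.58, and 0 were above or below either neighbour in every library. Ribosomal protein genes had medians of -0.27 and -0.26, with 64 of 71 measured below earlier spermatids. mRNA storage genes had medians of -0.26 and 0.81 (15 of 29 measured), transcription genes -0.17 and 1.22 (12 of 20), and the factor Crem was at 557, 438 and 97.2 CPM. Ubiquitin and cytoplasm removal genes had medians of 0.21 and 0.13 (17 of 23), signalling genes -0.05 and 0.39 (16 of 20), heat shock genes -0.23 and 0.47 (15 of 24), and NRF2 and antioxidant genes 0.03 and -0.13 (12 of 31). Hspa2, the testis chaperone, was at 790, 499 and 109 CPM, and Prdx4, a peroxiredoxin, at 196, 333 and 757 CPM. CPM is relative, so a gene can be lower in CPM because others are higher.

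Smoke exposure was then compared over the 6 libraries within the members. Members made up 0.386%, 0.314% and 0.392% of barcodes within the mitochondrial limit in the control libraries and 0.301%, 0.594% and 0.266% in the smoking libraries. These overlapped (exact two-sided permutation test, p = 1; 3 against 3 libraries cannot give less than 0.1). Of barcodes with at least 10000 UMIs, members were 6.19%, 6.11% and 2.98% against 2.33%, 4.68% and 1.32%, a difference of -2.32 percentage points (exact permutation p = 0.2). The log2 ratio of members to later barcodes was -2.78, -2.80 and -4.28 against -4.74, -3.75 and -5.70 (difference -1.44, exact permutation p = 0.2). The last 2 measures overlapped between the groups and depend on depth, which differed between them.

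Per-barcode measures overlapped as well. Median UMIs per member were 24832, 19994 and 13557 in the control libraries and 13672, 12453.5 and 25952 in the smoking libraries (exact permutation p = 0.9). Median P was 5.52, 4.28 and 5.77 against 5.20, 3.89 and 5.03 (exact permutation p = 0.5). Neither measure separated the groups.

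In the sums over all members, 1 of 7219 genes tested (0.0139%) passed an adjusted p of 0.05 with edgeR's quasi-likelihood test and Benjamini-Hochberg adjustment, and 371 (5.14%) had an unadjusted p under 0.05. The smoking libraries were all higher than the control libraries for 456 genes (6.32%) and all lower for 333 (4.61%). The called gene was Calm2, 1 of the genes of the calcium sensor calmodulin (chr17:87433412-87446935, minus strand). It was at 125, 154 and 163 CPM in the control libraries and 307, 335 and 328 CPM in the smoking libraries, with no overlap. The log2 fold was 1.14 (SE 0.14, edgeR adjusted p = 0.0464). In the spermatid-marked members Calm2 was at 38.9, 68.9 and 51.8 CPM in the control libraries and 59.7, 52.9 and 46.0 CPM in the smoking libraries, and these overlapped (log2 fold 0.02, SE 0.24, edgeR adjusted p = 0.999). Of its 1203 UMIs, 989 (82.2%) lay in the other 45 barcodes. Of the 1203, 610 (50.7%) lay in 3 of these barcodes, of 58545, 106592 and 112323 UMIs, 1 in each smoking library, whose leading list was spermatocyte. Without those 3, the log2 fold was -0.50 (SE 0.23, edgeR adjusted p = 1.00). The spermatocyte list summed to 1204, 1177 and 1375 CPM over all members of the control libraries and 1424, 1841 and 1352 CPM in the smoking libraries. In marked members it summed to 1114, 1124 and 1120 against 1122, 1114 and 1063 CPM, but the marker condition itself uses this list. The part of spermatocyte transcripts in the Calm2 difference was not tested.

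The genes next in p had UMIs in the same 45 barcodes. Stk31, a testis-expressed kinase-like gene, had a log2 fold of 1.99 and Mllt10, a chromatin-associated gene, of 1.41 (edgeR adjusted p = 0.114 for both), and 83.3% and 76.3% of their UMIs were in the other 45 barcodes. Prc1, needed for cell division (1.67), Cks2, a cyclin-dependent kinase subunit (1.05), and Tesmin (1.27) had 79.7%, 70.7% and 71.8% of their UMIs there. Rsph1, a radial spoke protein, had 44.7% there and a log2 fold of 0.76. None but Calm2 passed.

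In the spermatid-marked members, 0 of 5918 genes (0.00%) passed and 267 (4.51%) had an unadjusted p under 0.05 with edgeR. The 3 smoking libraries were all higher for 298 genes (5.04%) and all lower for 284 (4.80%). Npm1, the nucleolar protein nucleophosmin, had one of the smallest p values, at 192, 203 and 212 CPM in the control libraries and 322, 276 and 254 in the smoking libraries (log2 fold 0.49, edgeR adjusted p = 0.997). The non-coding RNA 4930557F10Rik was at 229, 109 and 107 CPM against 356, 251 and 268 (0.92, edgeR adjusted p = 0.997). Scgn, a calcium-binding protein gene, was at 70.8, 120 and 120 CPM against 10.8, 10.1 and 66.9 (-1.76, edgeR adjusted p = 0.997). These 3 had no overlap between groups, and no call could be made of them after adjustment over all genes. The antisense RNA 1700109G14Rik (log2 fold -0.45) had no overlap either. The antisense RNA 1700105P06Rik (-1.57) overlapped, at 198, 41.7 and 88.3 CPM in the control libraries and 45.2, 35.3 and 36.3 CPM in the smoking libraries, with control replicate 1 far above the rest. No label or header states whether reads were counted by strand. Whether reads of partners on the opposite strand entered the counts of these 2 antisense genes was not tested.

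Hemgn in marked members was at 464, 410 and 466 CPM in the control libraries and 454, 233 and 364 CPM in the smoking libraries (log2 fold -0.37, edgeR adjusted p = 0.997). The groups overlapped, and without smoking replicate 2 the log2 fold was -0.13. In the later band as a whole Hemgn had a log2 fold of -0.96, Faiml of -1.04 and Dcdc2c of -1.02 (edgeR adjusted p = 0.0522 for each, 0 of 12374 genes called and 2027 or 16.4% at an unadjusted p under 0.05). Median P of the later band was 26.2, 28.8 and 28.8 in the control libraries and 30.4, 29.5 and 29.5 in the smoking libraries, without overlap. Levels of these genes change along P, and the part of P in these folds was not tested. At P of 10 to under 15, next to the members, the Hemgn log2 fold was -0.33 (edgeR adjusted p = 0.996), and at P of 20 or more -0.79 (edgeR adjusted p = 0.00100). The difference between the member effect and the later effect, taken within each library, passed for 0 of 7209 genes (limma, 569 or 7.89% at an unadjusted p under 0.05). It was 0.44 for Hemgn (limma adjusted p = 0.641) and 1.32 for Calm2 (limma adjusted p = 0.0663).

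**Figure D5:**
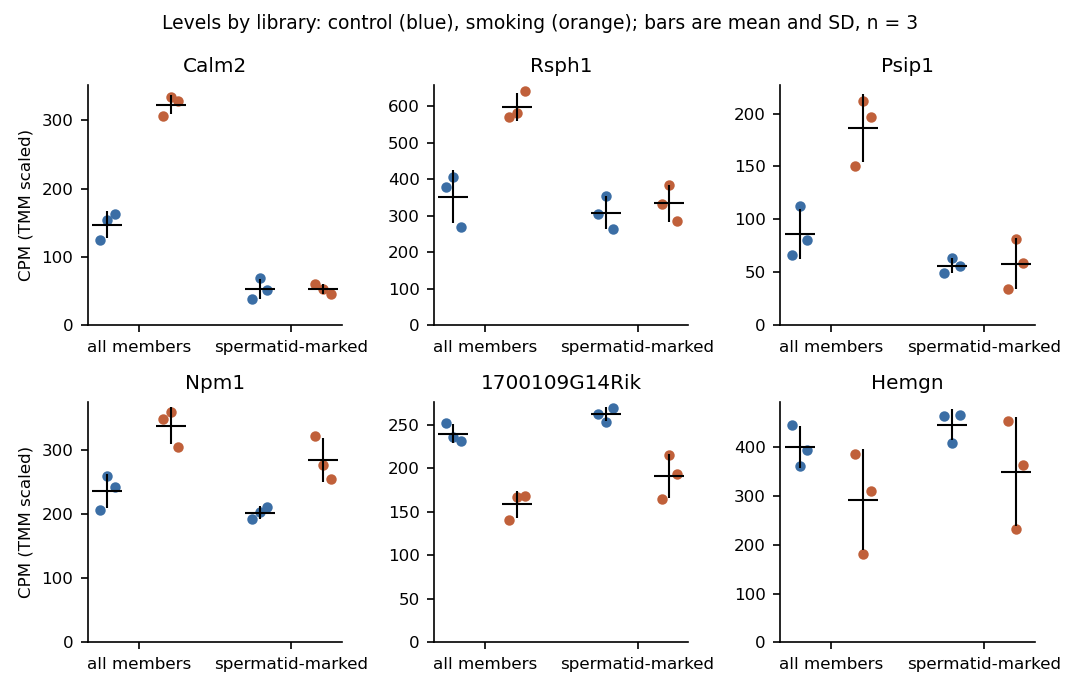
TMM-scaled CPM (y) of 6 genes over all members and over spermatid-marked members (x), with a point per library, blue for control and orange for smoking, and bars for the mean and SD of n = 3. Calm2 separates the groups over all members (125 to 163 against 307 to 335 CPM) and overlaps in marked members.

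No gene passed in any list in the marked members. Their median log2 folds lay near the 0.00 of all genes for acrosome (0.01, 24 tested), tail structure (0.00, 34 tested), axoneme (0.05, 25 tested), manchette (0.03, 20 tested), transcription (0.05, 17 tested), mRNA storage (0.03, 19 tested), ubiquitin (0.01, 20 tested), signalling (0.02, 17 tested), heat shock (0.03, 19 tested), NRF2 and antioxidant (0.00, 14 tested), oxidative phosphorylation (-0.01, 47 tested) and ribosomal protein genes (0.04, 78 tested). Histone exchange genes had a median of -0.09, with 3 of 17 positive, where 3016 of all 5918 genes tested were positive. The mitochondrially encoded genes stood apart at 1.03, with 10 of 10 positive and 2 at an unadjusted p under 0.05. The median marked member did not share this. Its mitochondrial percent was 0.028, 0.045 and 0.060 in the control libraries and 0.041, 0.052 and 0.034 in the smoking libraries. Only 13 of 149 marked members were over 1%: 1, 1 and 2 in the control libraries and 3, 6 and 0 in the smoking libraries. The summed level of these genes was 912, 3921 and 1960 CPM in the control libraries and 5857, 7019 and 331 CPM in the smoking libraries, which overlapped. The Sertoli list summed to 28.2, 30.0 and 38.6 CPM against 102, 257 and 34.9 CPM in the same members, and its part in that difference was not tested. The labels do not say that the libraries come from separate mice, so the p values measure the spread between these libraries.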

How the data were processed

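Testis cells of 3 control and 3 smoke-exposed libraries were sequenced with the 10x Genomics 3' v2 method. The authors deposited UMI counts per gene and barcode, not normalized. Cell Ranger 3.1.0 made them per the file headers; 7.1.0, with CASAVA 1.8 and mm10, is the version in the submitters' processing notes. Counts were summed per library over members and tested with edgeR 4.0.16 (R 4.3.3; TMM, filterByExpr, quasi-likelihood test, Benjamini-Hochberg adjustment), and the difference between bands with limma 3.58.1. Single values had exact permutation tests. The members and gene lists were chosen with earlier results of these data known, and the spermatid-marked condition after seeing the data. Stage genes are those with 50 CPM or more in every library, ranked by their smallest fold over the libraries; smoke genes are those past the threshold, or, with fewer than 3, the 10 smallest p values at 10 CPM or more. Doublets were not removed in the main analysis. The highest doublet scores were marked in 591 of 8598 deposited barcodes in control replicate 1, up to 796 of 9976 in smoking replicate 3. Among members the mark was more frequent, in 51 of 194, with 36 of the 149 spermatid-marked members. In control replicate 2 it was on 17 of 27 members. Alternatives were another test or scaling (DESeq2 1.42.0, limma-voom, RLE), no filter, other UMI, P and mitochondrial limits, thinning, doublet removal, pseudocount and leaving out each library. The steps were tested on simulated data. Promoters came from RefSeq.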

Additional observations from a re-analysis of the deposited data

How the results depend on the processing

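No paired analysis was possible because the labels give no replicate numbers, litters or batches shared between groups; the replicate numbers used here follow the order of the records within each group and pair nothing. The 1 called gene among all members became 15 with 15000 UMIs or more, 20 with a 5% mitochondrial limit, 16 at P of 5 to under 10, 7 with DESeq2 and 58 with no filter. It became 0 with 6000 UMIs, P of 3 to under 6, the P-matched draw, doublets removed, thinning, RLE scaling or limma-voom, and also 0 in spermatid-marked members, in these without smoking replicate 2 and without the 3 unmarked barcodes. Leaving out 1 library gave 0 to 10 calls, with 10 only without smoking replicate 3. The causes were not tested. For the later band, 0 calls became 270 with DESeq2, 678 with no filter, 121 at P of 20 or more and 8 in spermatid-marked barcodes, and leaving out 1 library gave 0 to 1612 (1612 without control replicate 3, 1 without control replicate 2, 4 without smoking replicate 3). The difference between bands stayed at 0 calls in each setting run. Calm2 adjusted p ranged from 1.59e-06 to 1.00 over its alternatives, 7 of 22 below 0.05. The smoking minus control difference in the member share, 0.0230 percentage points, turned to -0.0609 with 15000 UMIs and -0.0094 in marked members, and ranged from -0.0807 to 0.0836 leaving out 1 library. The difference in median UMIs, -2102, turned to 69.0 with 6000 UMIs and 11033 with 15000, and ranged from -6398 to 584 leaving out 1 library. Median genes turned to 681.5 with 15000 UMIs, median P to 0.0971 with 6000, and the percent of members at P of 3 to under 5 to -0.0653 and -4.41 with 6000 and 15000 UMIs (range leaving out 1 library -3.71 to 11.3). At P of 3 to under 6 the log2 folds reversed for Calm2 (-0.47), Mllt10 (-0.38), Rsph1 (-0.10), Cks2 (-0.44), Tesmin (-0.13), Mphosph8 (-0.094) and Atxn7l3b (-0.18). Without the 3 unmarked barcodes they reversed for Calm2 (-0.50), Mllt10 (-0.22), Psip1 (-0.18), Rsph1 (-0.071), Cks2 (-0.45), Tesmin (-0.19) and Mphosph8 (-0.13). Calm2 was -0.054 when thinned and Mphosph8 -0.11 with 6000 UMIs. In marked members Cks2 was -0.43 and Tesmin -0.27, and without smoking replicate 2 these were -0.88 and -0.18, with Psip1 at -0.23. The stage count of 20 genes stayed within 1.5 times under its alternatives.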
